A study of Mus musculus with 39 samples.

Results

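1700018G05Rik and Gm9112 are a pair of mouse transcripts with no assigned function, and they are 2 of the 29411 gene symbols in the fold change table of the series. A probe well above the local background on at least 6 arrays was available for 24723 symbols, and both transcripts were among them. They were chosen by their p-values in the comparison of the high-fat with the low-fat arrays, where their probes and that of Scd1 gave the 3 smallest. The difference between those diets is therefore what selected them, and it is given below as a description with no test.

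The data were 39 one-colour Agilent arrays of total RNA from C57BL/6J mice, and the samples were labelled as brown infiltrating macrophages (SVCs). Mice weaned at 3 to 4 weeks of age were divided into 5 groups of 30 animals. The LFC group received a diet with 10% of calories from fat, and the HFC group received a diet with 60% of calories from fat and more sucrose. The HF5, HF20 and HF75 groups received the HFC diet with 5, 20 or 75 µg of KAL-1, an ethno-botanical aqueous formulation, and are called the KAL arrays below. LFC had 10 arrays, of which 4 were labelled by day (1, 6, 10 and 14) and 6 by week (0, 3, 9, 12, 15 and 18). HFC had 11 arrays, for the same labels and Week 6. Each KAL dose had 6 arrays, for Week 3 to Week 18 in steps of 3 weeks. Weeks were counted from Day 14. Every diet therefore had 1 array per time label, time labels stood in for replicates, and each SD below includes change over time as well as error. The labels state that 5 animals of each group were killed at each interval, but whether 1 array held RNA of 1 animal or of a pool is not given in the sources used here. In 1 field the HF20 array of Week 12 is called a high fat diet array, and its title and source name were followed. A token, BA or BAT, appears in 9 of the titles, and the labels do not explain it.

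RIKEN clone names such as 1700018G05Rik record a full-length cDNA library and a plate position, here a library of adult mouse testis, and names that start with Gm mark genes predicted from the mouse genome sequence. Both transcripts lie in cytoband X D, in a stretch of the X chromosome that holds duplicated genes of the Dmrtc1 family, which are related to the doublesex and mab-3 factors of sex determination. Scd1 encodes a stearoyl-CoA desaturase, which puts a double bond into saturated fatty acids made by de novo lipogenesis, and it is an abundant transcript of fat tissue whose level is known to respond to diet. The deposited annotation names 1700018G05Rik a predicted transcript of a RIKEN cDNA and Gm9112 a predicted gene. Its ontology columns give both members the root terms alone, with the evidence code for no data. In the RefSeq table for GRCm38.p6, 1700018G05Rik is a lncRNA and Gm9112 a protein-coding gene.

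The probes are shown first, because every value below was read from them and because that of Gm9112 has a close relative. Each is 60 bases long and is written 5′ to 3′, and capitals mark the bases at which the probe of Gm9112 differs from that of its neighbour 1700011M02Rik.
1700018G05Rik: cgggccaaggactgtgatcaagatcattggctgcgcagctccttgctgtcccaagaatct
Gm9112: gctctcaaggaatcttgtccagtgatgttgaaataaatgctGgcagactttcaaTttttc
1700011M02Rik: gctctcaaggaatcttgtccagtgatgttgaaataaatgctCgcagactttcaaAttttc

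The 1700018G05Rik probe had 1 spot on each array and 55.0% G and C, and none of the 40627 other probes shared a run of 20 letters with it. The Gm9112 probe had 2 spots on each array and 38.3% G and C. It differed from the 1700011M02Rik probes, of which there were 2 with identical letters, by G42C and T55A, counted from 1 at the 5′ end with the base of Gm9112 first. Signal from Gm9112 and signal from 1700011M02Rik cannot be told apart with these probes, and both are reported with that limit. The scanner annotation gave no genome position for either member's probe and marked both as unmapped.

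The sequences upstream of the members are shown because both hold the same stretch of 15 bases, in capitals. They are from RefSeq for GRCm38.p6, written 5′ to 3′ on the strand of the gene up to the base before its start, at chrX:102707671-102707880 on the minus strand for Gm9112 and at chrX:102928122-102928371 on the plus strand for 1700018G05Rik. The stretch for Gm9112 was cut at the edge of the next gene, Dmrtc1b, which is read the other way.
Gm9112: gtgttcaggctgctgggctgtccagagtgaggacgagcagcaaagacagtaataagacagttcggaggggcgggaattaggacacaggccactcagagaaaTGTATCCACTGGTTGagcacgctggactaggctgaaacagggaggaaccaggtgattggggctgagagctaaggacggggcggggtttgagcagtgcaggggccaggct
1700018G05Rik: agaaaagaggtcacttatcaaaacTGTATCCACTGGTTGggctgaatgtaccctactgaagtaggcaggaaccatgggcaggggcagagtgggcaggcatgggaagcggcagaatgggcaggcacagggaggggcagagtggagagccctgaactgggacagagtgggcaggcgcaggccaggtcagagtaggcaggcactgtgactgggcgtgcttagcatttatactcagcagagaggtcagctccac

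The shared stretch began 109 bases before the start of Gm9112 and 226 bases before the start of 1700018G05Rik. Of the 32851 windows in the promoter table, from 250 bases before to 50 bases after a start, 4 held it on either strand (0.0122%), and these belonged to 1700018G05Rik, Gm9112, Dmrtc1a and Dmrtc1b. The 210 bases upstream of Gm9112 were identical to a Dmrtc1a window at 205 positions (97.6%), and the windows of Gm9112 and Dmrtc1b cover the same bases, so these 3 occurrences are copies of 1 stretch. The other motifs searched, on both strands of the 300-base windows, were those of general promoter elements and of factors of lipid metabolism. TATAAA occurred once upstream of 1700018G05Rik and not in the Gm9112 window, and 13.6% of all windows held it. CCAAT occurred once in the Gm9112 window (37.4% of all windows) and GGGCGG occurred at 2 places there (35.7%), and neither occurred in the 1700018G05Rik window. CACGTG (7.15% of all windows) and the sterol element TCACNCCAC (1.24%) were in neither window, which says only that these letters were not in these bases.

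Levels below are log2 of the processed signal of the spot relative to the 75th percentile of its array, so that 0 is the brightness of a probe at that percentile. Levels of different probes are not on 1 scale and are not set against each other. On the HF20 array of Week 15 the spots of both members carried the scanner's mark for uneven signal, as did 71.4% of the spots there, so 38 arrays gave a level for the members. The Scd1 spot was saturated on 4 arrays, HF5 Week 9, HF20 Week 12, HF75 Week 15 and LFC Week 12, at 62482 to 69102 units, so its level there is a lower bound. All 4 have titles with BA or BAT, and no spot of a member was saturated. In RNA of mixed cells, fewer cells of a type and less RNA per cell cannot be told apart.

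A pair of arrays stood apart in the markers of brown fat and of mesothelium, the lining of body cavities, in genes looked up after the arrays were seen. The level of Ucp1, the uncoupling protein of brown fat, was -3.16 on the LFC array of Day 10 and -3.18 on the HFC array of Week 12, and at least 1.48 on the other 37. The mesothelin gene Msln was at 3.46 and 4.08 there and at most -0.68 on the 35 others with a value, and Wt1, a transcription factor of mesothelium, was at 0.57 and 1.46 there and well above background on 0 of the others. These arrays held the second highest LFC level of each member and the highest HFC level of 1700018G05Rik, so results that rest on LFC and HFC arrays are also given without them.

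1700018G05Rik was higher on most LFC arrays than on any other array with a level. Its LFC levels were -4.35 at Day 1, -3.13 at Day 6, -0.20 at Day 10, -1.11 at Day 14, -3.60 at Week 0, -0.88 at Week 3, -2.12 at Week 9, 1.61 at Week 12, -1.98 at Week 15 and -0.76 at Week 18. The mean was -1.65 ± 1.77 (SD, n = 10), and the arrays of Day 1, Day 6 and Week 0 lay low in the group. On the 11 HFC arrays the lowest level was -7.81, at Week 9, the median was -4.73 and the highest was -3.40, at Week 12, with a mean of -4.92 ± 1.43 (SD, n = 11). The groups overlapped at the 2 lowest LFC arrays, those of Day 1 and Week 0, which lay within the range of HFC. Without the pair of arrays that stood apart the means were -1.81 ± 1.79 (SD, n = 9) and -5.07 ± 1.41 (SD, n = 10).

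Gm9112 followed the same order of diets. Its LFC levels were -4.27 at Day 1, -4.78 at Day 6, 1.23 at Day 10, -1.10 at Day 14, -4.10 at Week 0, -1.53 at Week 3, -1.50 at Week 9, 1.55 at Week 12, -2.55 at Week 15 and -1.05 at Week 18. The mean was -1.81 ± 2.17 (SD, n = 10), with Day 10 and Week 12 far above the rest and Day 1, Day 6 and Week 0 at the bottom. The HFC levels ran from -7.80 at Week 9 over a median of -5.11 to -2.16 at Day 14, with a mean of -5.31 ± 1.67 (SD, n = 11). In HFC the Day 14 array alone lay above -3.98, and 4 LFC arrays, those of Day 1, Day 6, Week 0 and Week 15, lay within the range of HFC. Without the arrays that stood apart the means were -2.15 ± 2.0 (SD, n = 9) and -5.38 ± 1.75 (SD, n = 10).

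The 3 KAL doses lay with HFC rather than with LFC in both members. For 1700018G05Rik the HF5 levels were -4.14, -5.24, -4.97, -3.12, -6.48 and -3.15 from Week 3 to Week 18, with a mean of -4.52 ± 1.31 (SD, n = 6). The HF20 levels were -3.30, -5.96, -2.63 and -4.31 at Week 3, Week 6, Week 9 and Week 12 and -2.36 at Week 18, with a mean of -3.71 ± 1.47 (SD, n = 5). The HF75 levels were -5.36, -6.16, -3.86, -5.09, -2.98 and -3.27 from Week 3 to Week 18, with a mean of -4.45 ± 1.27 (SD, n = 6). None of the 17 KAL arrays with a level reached that of the LFC arrays of Day 10, Day 14, Week 3, Week 9, Week 12, Week 15 or Week 18. The marked spot of HF20 at Week 15, if kept, would lie at -1.01, above the LFC arrays of Day 14, Week 9 and Week 15.

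For Gm9112 the HF5 levels were -4.06, -5.17, -5.48, -2.87, -8.27 and -2.59 over the same weeks, with a mean of -4.74 ± 2.09 (SD, n = 6). The HF20 levels were -4.07, -5.79, -2.79, -5.69 and, at Week 18, -4.50, with a mean of -4.57 ± 1.24 (SD, n = 5). The HF75 levels were -4.86, -6.32, -3.81, -4.83, -3.58 and -4.47, with a mean of -4.64 ± 0.97 (SD, n = 6). The HF5 array of Week 15 was the lowest of all 38 arrays for this transcript, and here too the 17 KAL arrays with a level stayed below the same 7 LFC arrays, though HF5 at Week 18 lay just under LFC at Week 15. The marked spots of HF20 at Week 15, if kept, would lie at -2.09, above LFC at Week 15.

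**Figure D1:**
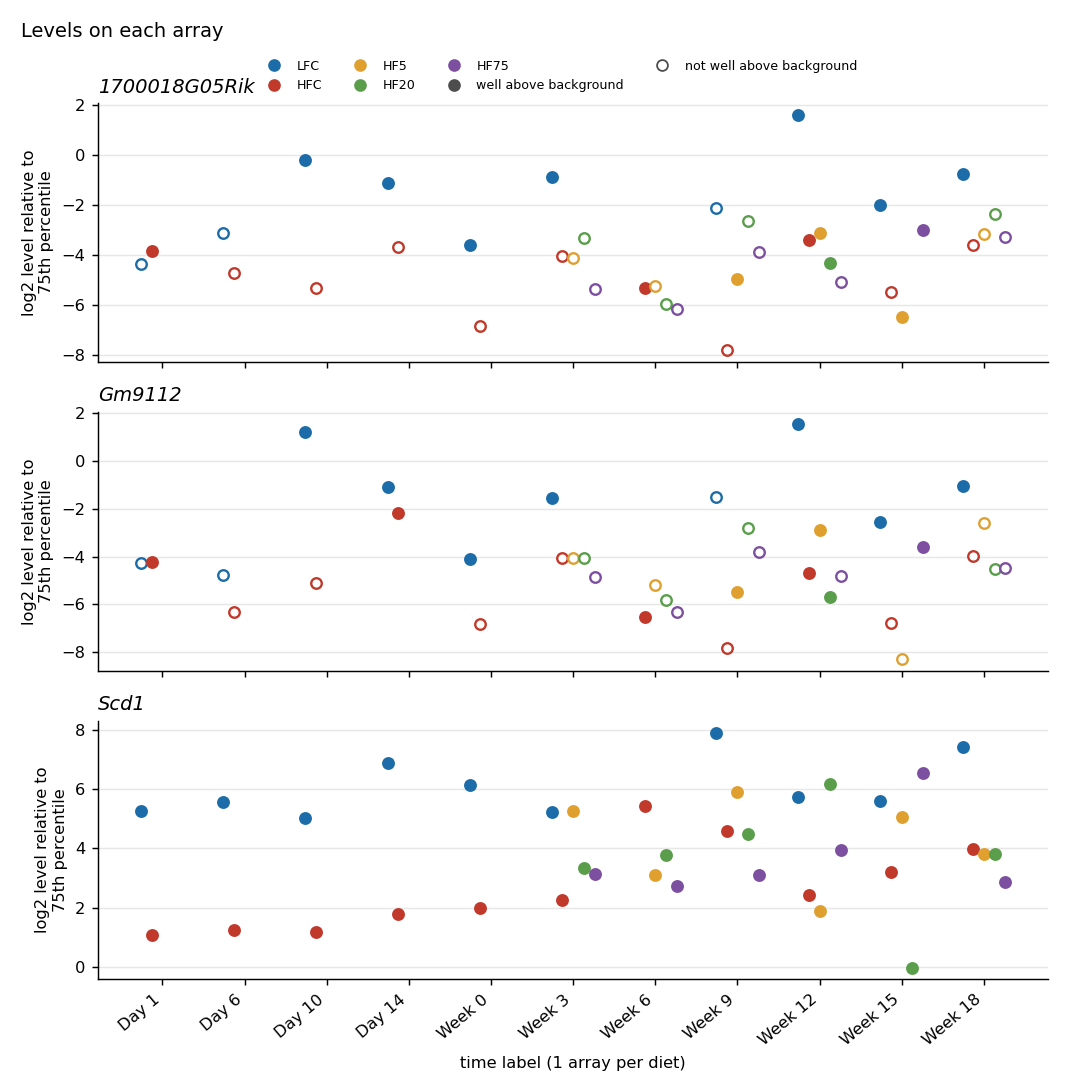
Level of 1700018G05Rik, Gm9112 and Scd1 on each array (log2 relative to the 75th percentile of the array) against the time label, with 1 point per array, coloured by diet, filled where the spot was well above background and open where it was not. For both members the LFC point stands above the other points of its label from Day 6 on, though at Day 6 and Week 9 it is open. Most HFC and KAL points of the members are open, while every Scd1 point is filled.

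By mean level the order was LFC, HF20, HF75, HF5 and HFC for both members. The step from LFC to HF20 was 2.06 in 1700018G05Rik and 2.76 in Gm9112, beyond the smaller SD of the neighbouring groups in both. Each of the other steps, the largest of which was 0.74 in 1700018G05Rik and 0.57 in Gm9112, was smaller than that SD, so the 4 groups on the high-fat diet could not be put in an order. Scd1, whose order was LFC, HF5, HF75, HF20 and HFC, likewise had no step beyond the smaller SD other than the first.

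At single time labels the HFC array lay below the LFC array at 9 of 10 labels in each member, and the exception was Day 1. Both arrays were well above background at 1 label for 1700018G05Rik, Week 12, where HFC minus LFC was -5.01, and at 2 labels for Gm9112, Day 14 and Week 12, where it was -1.06 and -6.24. The HFC array of Week 12 is one of the pair that stood apart, and the title of the LFC array holds BA. Without that label no difference of 1700018G05Rik was measured on both arrays. At 6 labels for 1700018G05Rik and 5 for Gm9112 the LFC array alone was well above background, and HFC was lower at each of them by a size that was not measured. At Day 6 and Week 9 neither array was, so those differences compare background signals on arrays of different brightness. At Day 1 the HFC array alone was well above background, and the LFC level is a bound that lay 0.53 below it in 1700018G05Rik and 0.03 below it in Gm9112. Scd1 was well above background on both arrays at all 10 labels, and its difference ran from -2.41 to -5.11, with -4.19 at Day 1. At 6 labels both arrays had been scanned on the same date, and there HFC was lower in 6 of 6 for each member, with medians of -3.38 and -3.58. These arrays are among those on which the members were chosen. For both members the HFC array was at background at most of these labels, so the medians do not measure a size.

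The probes just past the selection threshold were of like size, and those after them were smaller. In the fit of diet and time label that chose the members, HFC minus LFC was -3.16 (SE 0.56) for 1700018G05Rik and -3.40 (SE 0.64) for Gm9112, or -2.98 (SE 0.62) and -3.01 (SE 0.69) without the arrays that stood apart. Just outside came Acly, the ATP citrate lyase of fatty acid synthesis, at -2.58 (SE 0.49), LOC677051 at -2.93 (SE 0.56) and the fructose transporter gene Slc2a5 at -3.57 (SE 0.74). After them came Golga7b at -1.79 (SE 0.41) and, higher in HFC, Gm9095 at 1.69 (SE 0.40).

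In the same fit HF5, HF20 and HF75 differed from HFC by 0.11 (SE 0.70), 0.82 (SE 0.74) and 0.18 (SE 0.70) in 1700018G05Rik. They differed from LFC by -3.05 (SE 0.72), -2.34 (SE 0.77) and -2.99 (SE 0.72). The differences from HFC in Gm9112 were 0.44 (SE 0.79), 0.37 (SE 0.85) and 0.54 (SE 0.79), and those from LFC were -2.96 (SE 0.82), -3.03 (SE 0.88) and -2.87 (SE 0.82). These sets share the HFC or LFC arrays on which the members were chosen and are set side by side with no test. In each case the distance of a KAL dose from HFC was smaller than its distance from LFC, and most HFC and KAL levels behind these values were at background. Without the arrays that stood apart the differences from LFC were -2.92, -2.21 and -2.86 in 1700018G05Rik and -2.81, -2.89 and -2.72 in Gm9112.

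Most values of the members outside LFC were at the background of the array. The 1700018G05Rik spot was well above background on 7 of 10 LFC arrays, 3 of 11 HFC arrays, 3 of 6 HF5 arrays, 1 of 5 HF20 arrays and 1 of 6 HF75 arrays. The Gm9112 spots were on 7, 4, 2, 1 and 1 arrays of the same groups. The same arrays were behind both counts. Both members were well above background on 14 arrays, 1700018G05Rik alone on 1, the HF5 array of Week 15, Gm9112 alone on 1, the HFC array of Day 14, and neither on 22.

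The processed signal shows the same in scanner units, where that of Gm9112 is the geometric mean of its spots. On the LFC array of Week 12 it was 3947 units for 1700018G05Rik and 3768 units for Gm9112, and the LFC medians were 31.4 and 25.5 units. The HFC medians were 4.08 and 4.06 units, and the highest HFC signals were 90.3 and 36.8 units. Where a member was not well above background its signal was at most 14.1 units for 1700018G05Rik and 8.50 units for Gm9112, and on 10 and 13 of these arrays it was the surrogate value that the scanner software writes in place of a signal too close to background. At such a floor the scaled level is lower on a brighter array, and over the arrays not well above background r between level and log2 75th percentile was -0.84 and -0.92. A level on such an array bounds the transcript from above and does not measure it.

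Array brightness was read beside these counts. The median 75th percentile was 164 units in LFC, 215 in HFC and 81.1 in the KAL groups. The dimmest array on which 1700018G05Rik was well above background had a 75th percentile of 49.4 units in LFC, 468 in HFC and 189 in the KAL groups. For Gm9112 these values were 49.4, 46.8 and 189 units. On arrays with 1700018G05Rik well above background the median 75th percentile was 222 units in LFC, 748 in HFC and 852 in the KAL groups. On the arrays where it was not, the medians were 124, 116 and 57.3 units. Those of Gm9112 were 222, 608 and 804 units against 124, 136 and 65.9 units. By median the arrays above background were thus the brighter ones, most of all outside LFC. Single arrays departed from this. The HFC array of Week 9, at 918 units one of the brightest, gave 4.08 units for 1700018G05Rik and 4.11 for Gm9112, neither well above background, whereas the LFC array of Week 3, at 49.4 units, gave 26.8 and 17.2 units, both well above background.

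**Figure D2:**
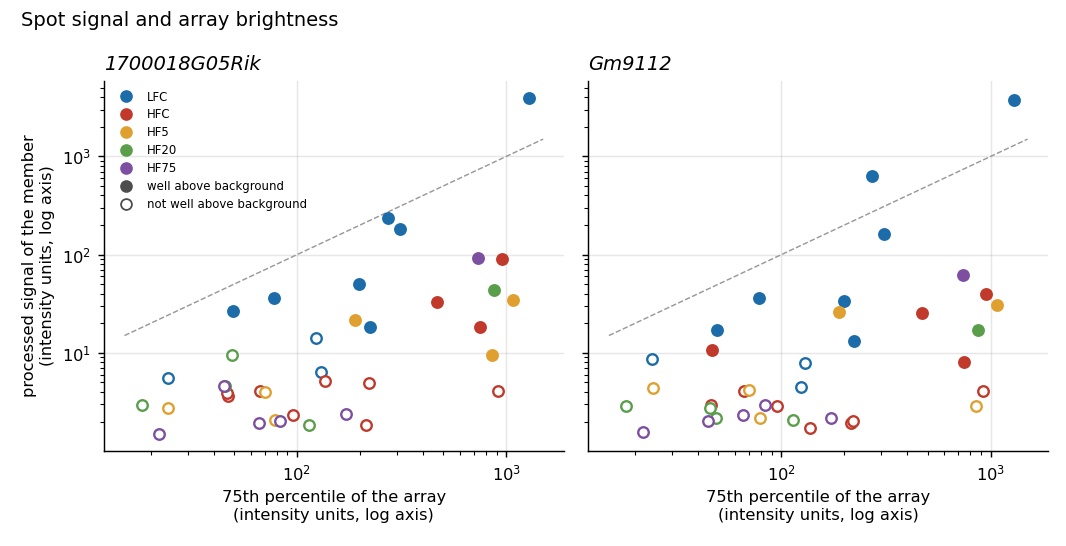
Processed signal of 1700018G05Rik (left) and Gm9112 (right) against the 75th percentile of the array, both in intensity units on log axes, with 1 point per array, coloured by diet, filled where well above background, and a dashed line where signal equals the 75th percentile. Open points stay at or below 14.1 units over the whole range of brightness, and the LFC arrays of Day 10 and Week 12 are the ones nearest to the line or above it.

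The marked spots of the HF20 array of Week 15 held 1976 units for 1700018G05Rik and 935 for Gm9112, on the brightest array of the series, with a 75th percentile of 3974 units. The 2 spots of Gm9112 on an array differed by a median of 0.40 on the log2 scale on the 15 arrays where it was well above background, with a largest difference of 2.07, and by a median of 0.20 on the other 23.

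The doses of KAL were compared with each other by limma. Their arrays were not in the contrast that chose the members, but they entered the error of that fit. The fit held all 39 arrays, so LFC and HFC arrays took part in the time label terms and the error, and with the KAL arrays alone HF20 minus HF5 of 1700018G05Rik was 0.76 (SE 0.68) in place of 0.71 (SE 0.78). Neither member passed an adjusted p of 0.05, and 0% of the 34043 probes tested did in any of the 3 contrasts, with 527, 1232 and 117 probes at an unadjusted p under 0.05 for HF20 against HF5, HF75 against HF5 and HF75 against HF20. HF20 minus HF5 was 0.71 in 1700018G05Rik (95% interval -0.89 to 2.32) and -0.07 in Gm9112 (-1.90 to 1.76). HF75 minus HF5 was 0.06 (-1.45 to 1.58) and 0.09 (-1.63 to 1.82), and HF75 minus HF20 was -0.65 (-2.25 to 0.96) and 0.17 (-1.66 to 1.99). Each interval leaves room for a difference of over 1 on the log2 scale in at least 1 direction.

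Over the weeks of the KAL arrays the level of 1700018G05Rik moved by 0.106 per week on the log2 scale (SE 0.057, limma adjusted p = 0.545) and that of Gm9112 by 0.028 (SE 0.069, limma adjusted p = 0.923). Of the 34043 probes 0% passed, with 3388 at an unadjusted p under 0.05 and a smallest adjusted p of 0.0788.

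On the arrays whose titles hold BA or BAT, 52.4% of the 34043 probes passed the test against the other arrays with diet and time label in the limma fit, 20.5% higher and 31.8% lower, with a median difference of -0.30 over all probes. The members were not among them, at -0.16 (SE 0.57, limma adjusted p = 0.825) for 1700018G05Rik and -0.42 (SE 0.64, limma adjusted p = 0.599) for Gm9112. Scd1 rose by 1.56 (SE 0.56, limma adjusted p = 0.0209) on these arrays, 4 of which had a saturated Scd1 spot, so the size is not exact. The direction of the members depended on the scaling, since quantile normalization gave 0.81 and 0.44, and normexp background correction gave -1.34 and -1.69. With normexp both members passed the threshold, as did 28430 of the 34043 probes. Scd1 and the members, which stood together between LFC and HFC, thus differed in this test, though the difference between the genes was not tested.

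Array by array, whether the members lay closer to each other than to Scd1 depended on the scaling. The 17 KAL arrays with values were not in the contrast that chose the 3 genes, but they entered the error of that fit. Over them the Pearson correlation of 1700018G05Rik with Gm9112 was 0.83 (permutation p = 2e-05, adjusted over 3 pairs 6e-05) and Spearman's rho was 0.83 (permutation p = 7e-05). Without the 2 arrays farthest from the median r was 0.80, and it was 0.98 in HF5 and 0.88 in HF75 (n = 6 each, exact permutation p = 0.0056 and 0.0097) and 0.78 in HF20 (n = 5, not tested). On the 13 KAL arrays with other titles it was 0.81. Both members were well above background on 4 of the 17 arrays, so most of these points lay at background, where both levels share the scaling to 1 percentile. With the log2 75th percentile held constant r was 0.79, with quantile normalization it was 0.43 (permutation adjusted p = 0.127), below the 0.48 of 1700018G05Rik with Scd1 there, and among 24723 genes Gm9112 ranked 130 by correlation with 1700018G05Rik on these arrays, behind 129 others.

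For 1700018G05Rik and Scd1 r was 0.0020 over the same 17 arrays (permutation p = 0.994, adjusted p = 0.994) and rho 0.11 (permutation p = 0.681). For Gm9112 and Scd1 r was -0.19 (permutation p = 0.472, adjusted p = 0.708) and rho -0.04 (permutation p = 0.891). Without the arrays farthest from the Scd1 median, HF20 Week 12 and HF75 Week 15, r was -0.17 and -0.28. The sign of these correlations turned with the scaling, as unscaled values gave 0.79 and 0.70, quantile normalization 0.48 and 0.37 and normexp -0.88 and -0.91, and 3 of these arrays had a saturated Scd1 spot, so no relation to Scd1 can be read from the KAL arrays.

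Within the diets on which the genes were chosen, given as a description, r of 1700018G05Rik with Scd1 was 0.03 over the 10 LFC arrays and -0.34 over the 11 HFC arrays, and that of Gm9112 was 0.06 and -0.41. The members correlated with each other at 0.93 in LFC and 0.84 in HFC. Over all arrays together r with Scd1 was 0.42 for 1700018G05Rik and 0.35 for Gm9112, and that between the members was 0.93, or 0.91 without the LFC array of Week 12. Without the arrays that stood apart r with Scd1 was 0.15 and 0.30 in LFC and -0.34 and -0.41 in HFC, and that between the members was 0.95 and 0.86. Inside the doses r with Scd1 was -0.51 and -0.52 in HF5, -0.12 and -0.29 in HF20 and 0.53 and 0.58 in HF75, whose 6 arrays include the saturated one of Week 15. The sign of the relation with Scd1 thus varied between the diets, while that between the members was positive in each. Both members were well above background on 7 of 10 LFC arrays, but on 3 of 11 in HFC, 2 of 6 in HF5, 1 of 5 in HF20 and 1 of 6 in HF75. At background both levels share the scaling to 1 percentile, so outside LFC the positive sign does not show that the transcripts moved together.

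**Figure D3:**
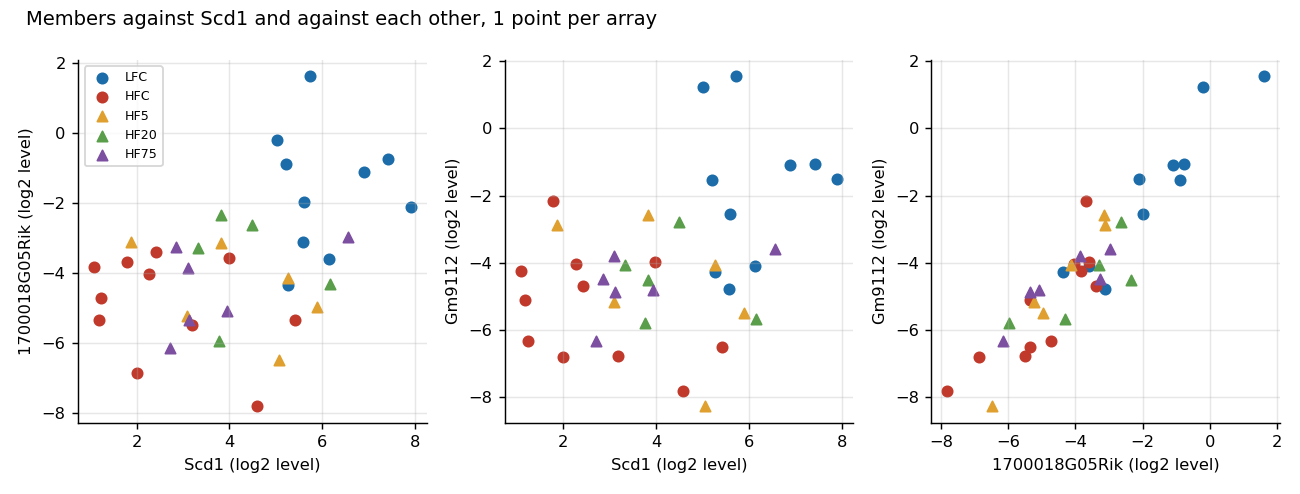
Level of 1700018G05Rik against Scd1 (left), of Gm9112 against Scd1 (middle) and of the members against each other (right), log2 relative to the 75th percentile, 1 point per array, with circles for LFC and HFC and triangles for the KAL doses. In the left and middle panels most LFC points lie to the upper right, with those of Day 1, Day 6 and Week 0 among or beside the points of other diets (r inside LFC 0.03 and 0.06), and in the right panel the points of all diets lie along 1 line (r = 0.93).

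Scd1 was not among the genes most alike either member. By Pearson correlation over the arrays, as a description and with 1 probe per gene, it ranked 366 of 24723 genes for 1700018G05Rik and 2344 for Gm9112, where each member ranked 1 for the other. Without the arrays that stood apart the ranks of Scd1 were 447 and 3705, and each member still ranked 1 for the other. The next 3 genes were the same for both and lie in cytoband X D as the members do. They were 1700011M02Rik (r 0.85 with 1700018G05Rik and 0.91 with Gm9112), Gm3880 (0.83 and 0.83) and Dmrtc1a (0.77 and 0.82). The points of such a correlation share array brightness and background. Each member was well above background on 15 of 38 arrays and Scd1 on all 39, so the ranks compare genes of unlike brightness. The r of 1700011M02Rik with Gm9112 carries the limit that these probes cannot tell the 2 apart.

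After these came Allc, an allantoicase gene, on chromosome 12 (0.71 and 0.79) and Syce1, a component of the synaptonemal complex of meiosis, on chromosome 7 (0.67 and 0.73). The rest of the 10 nearest genes were LOC677051, the zinc finger gene Zfp599, the molybdenum cofactor protein gene Mosc1 and Gapdhs, the glycolytic enzyme of sperm, for 1700018G05Rik, at 0.63 to 0.64. For Gm9112 they were Zfp599, LOC100047825, the renin gene Ren2 and Fam83e, at 0.70 to 0.72. Many of these probes were dim as well, and with marked spots counted Syce1 was well above background on 9 arrays and Fam83e on 7. LOC677051 was the one of them near Scd1 in pattern, with r of 0.78 with it.

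**Figure D4:**
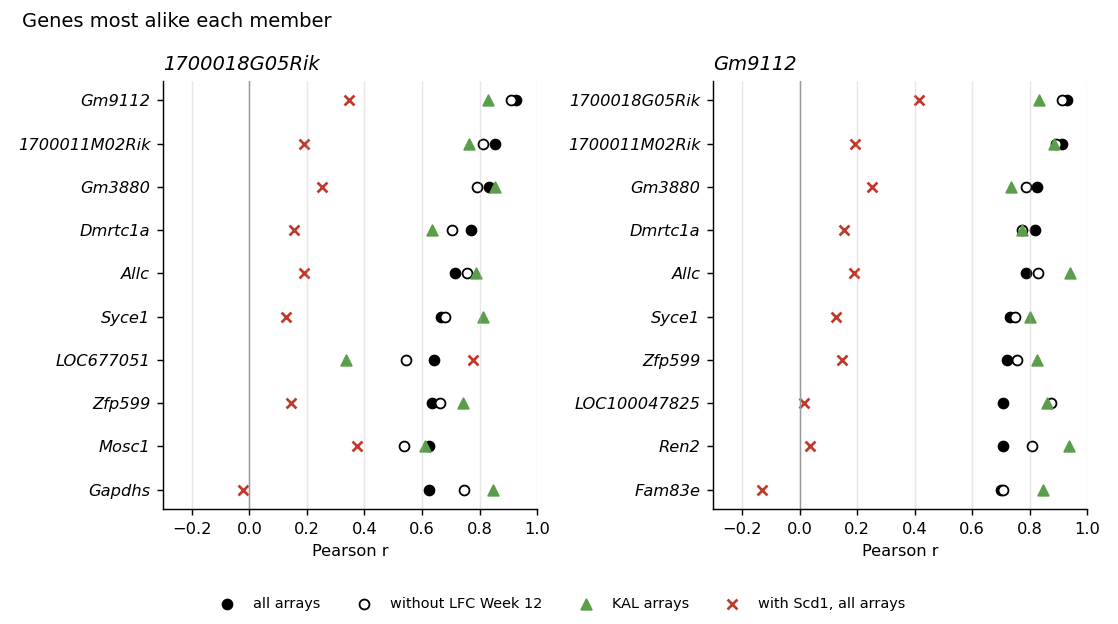
Pearson r of the 10 genes most alike 1700018G05Rik (left) and Gm9112 (right), over all arrays (black), without the LFC array of Week 12 (open) and over the KAL arrays (green triangles), with the r of each gene with Scd1 over all arrays as red crosses. The crosses lie left of the other marks for all genes but LOC677051, whose r with Scd1 is 0.78.

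The members lie close together on the X chromosome. In the RefSeq table for GRCm38.p6, 12 genes are annotated between them, and 27 between Phka1 and Nap1l2, of which 19 had a probe and 12 a probe above the detection filter. The nearest annotated neighbours of Gm9112 are Gm14840, a pseudogene with no probe, and Dmrtc1b. Those of 1700018G05Rik are Dmrtc1a, which overlaps 1700011M02Rik, and Gm5126.

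Among these neighbours the ones beside 1700018G05Rik had lower means in HFC as the members did, given as a description. The mean of 1700011M02Rik was -2.82 ± 2.15 (SD, n = 10) in LFC and -5.44 ± 1.65 (SD, n = 11) in HFC, and it was well above background on 4 and 3 of these arrays. Its LFC level was 0.71 at Day 10, on an array that stood apart, 0.88 at Week 12 and at most -2.19 elsewhere. Both arrays were well above background at Week 12, with 0.88 in LFC and -4.82 in HFC, and at Week 15, with -3.88 and -4.40. Dmrtc1a had means of -3.90 and -5.59, and was well above background on 3 LFC arrays and 1 HFC array. Gm5126 had means of -4.35 and -5.81, was well above background on 2 arrays and 1 array, and did not pass the detection filter. The means of Dmrtc1a and Gm5126 are thus near the floor and do not measure a difference between the diets.

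Dmrtc1b, which starts next to Gm9112 and shares the 15-base stretch, had means of -5.06 and -5.13, but it was well above background on 1 LFC array and 2 HFC arrays, so these means are near the floor and do not show whether it differed. The neighbours with strong signal had similar means in the diets, of 0.31 and 0.39 for Gm9115, of 7.44 and 7.16 for Gm9143 and of 2.49 and 2.28 for Gm6206, which were well above background on every LFC and HFC array with a value. The second 1700011M02Rik probe, with identical letters, had means of -3.12 in LFC and -5.84 in HFC and correlated with Gm9112 at 0.94. Because the Gm9112 probe differs from both by 2 bases, the part of 1700011M02Rik in the level of Gm9112 was not tested.

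**Figure D5:**
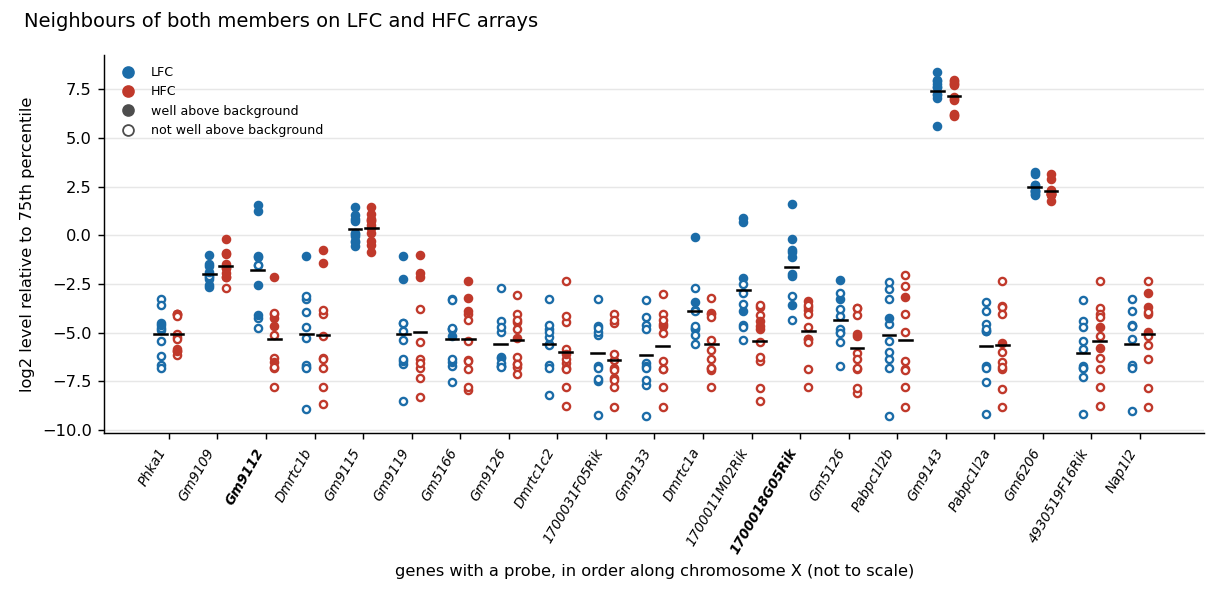
Level of the genes with a probe from Phka1 to Nap1l2 on the LFC and HFC arrays (log2 relative to the 75th percentile), 1 point per array, filled where well above background, with a bar at the mean of each diet and the genes in chromosomal order, not to scale. The LFC bar stands clear of the HFC bar for Gm9112 and for Dmrtc1a, 1700011M02Rik, 1700018G05Rik and Gm5126, and the bars of the other genes lie within 0.61 of each other. Most points of Dmrtc1a and Gm5126 are open.

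At the main scaling, the genes that work with Scd1 in making fatty acids had higher median correlations with Scd1 than with the members. Of 21 such genes, which include the synthases, elongases and other desaturases and their regulators, 20 were tested and Scd4 was too dim. With Scd1 they had a median r of 0.65 over all arrays, up to 0.87 for the malic enzyme gene Me1, which supplies NADPH. With 1700018G05Rik the median was 0.21 and with Gm9112 0.18, the highest being Acly at 0.50 and 0.48. Over the KAL arrays the medians were 0.71 with Scd1, 0.02 with 1700018G05Rik and -0.07 with Gm9112. Most member levels there were at background, and their r with Scd1 turned sign with the scaling. The lower medians therefore do not show that the members followed these genes less closely. None of the 20 passed the test between doses or over weeks, where 0% of all probes did.

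Between the kinds of title, 11 of the 20 rose and 2 fell, where 20.5% of the 34043 probes tested rose and 31.8% fell. The median difference of the 20 was 1.53, against -0.30 over all probes. The carboxylase gene Acaca rose by 3.58, the elongase gene Elovl6 by 3.11 and the regulator gene Srebf1 by 2.42, while the desaturase genes Scd3 and Fads1 fell by 3.32 and 0.96 (limma adjusted p from 0.0001 to 0.030 for these 5). The remaining 7 did not pass, nor did the members, except with normexp as given above, and list and members were not tested against each other.

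Markers of the labelled cell type and of other cells were summed on each array. All 10 macrophage markers were well above background on most arrays, and so were all 9 brown adipocyte, 9 of 10 general adipocyte and all 8 skeletal muscle markers, so markers of other cells were measured beside those of the labelled type. The summed macrophage level, log2 relative to the 75th percentile, ran from 2.30 to 4.90 in LFC and from 2.13 to 5.96 in HFC. Its r with the members was -0.02 and 0.05 over all arrays and -0.10 and 0.10 over the KAL arrays. The brown adipocyte sum ran from 3.19 to 9.78 in LFC and from 2.09 to 8.31 in HFC. Its r was -0.07 and -0.05 over all arrays and 0.35 and 0.44 over the KAL arrays. For the fibroblast, endothelial, erythroid, muscle, neutrophil, B cell and T cell sums r with a member lay between -0.24 and 0.17 over all arrays. Over the KAL arrays it lay between -0.41, for the endothelial sum, and 0.38, for the T cell sum.

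Because 1700018G05Rik is named from a testis library and some of the nearest genes act in meiosis or sperm, the sum of 10 germ cell markers was also read. It ran from -1.83 to 5.55 in LFC, from -1.85 to 2.30 in HFC and from -2.21 to 2.73 in the KAL groups. Its r with 1700018G05Rik was 0.38 over all arrays and 0.58 over the KAL arrays, and with Gm9112 it was 0.47 and 0.65. Of the 10 markers 4 were well above background on most arrays and 2, Ldhc and Ddx4, were dim. On the LFC array of Week 12, where both members were brightest, the germ cell sum was -1.83, the lowest of LFC. Over the KAL arrays the general adipocyte sum (r 0.52 and 0.59) and the hepatocyte sum (0.56 and 0.64) had r with the members of a like size. Over all arrays their r was 0.16 and 0.23 for general adipocytes and 0.22 and 0.25 for hepatocytes. Of 5 hepatocyte markers 4 had a probe, 1 was well above background on most arrays and 1, Ttr, was dim. Most member levels on the KAL arrays were at background, which limits each r given for them. The part of any of these cells in the levels was not tested.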

How the data were processed

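Total RNA was measured on 39 one-colour Agilent arrays of 1 design. In the deposited scanner files the intensity of a spot had been background-corrected and detrended by Feature Extraction 10.5.1.1 per the file headers, with 9.1 named in the submitters' processing notes, and the design was annotated on mm9. The deposited series table holds log2 values that the authors scaled in GeneSpring GX and set against the LFC array of the time label. In it the LFC and HFC columns of Day 14 appear exchanged (r = 0.995 of the LFC column with HFC minus LFC from the scanner files), and it was used as an alternative.

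Here log2 intensity was centred on the 75th percentile of each array, spots marked as outliers were dropped, and spots of a probe were averaged. Probes well above background on at least 6 arrays (34043 of 40628) entered limma 3.58.1 fits in R 4.3.3 of diet and time label, with Benjamini-Hochberg adjustment at 0.05, tested on simulated data. For HF75 against HF5 the simulation recovered 16% of probes with a log2 change of 2 and 80% of those with 4. A dose contrast with 0% of probes passing can therefore miss changes of such size. Correlations used 100000 permutations, or exact ones for 6 arrays, in SciPy 1.17.1. Scaling by quantiles, normexp with offset 50, filters, marked spots, slide, scan date, titles and time labels left out were alternatives, and leaving out LFC Day 10 with HFC Week 12, or LFC Week 12, was chosen after seeing the data. The 75th percentile ran from 18.1 to 3974 units over the arrays (median 130) and 31.2% to 98.0% of spots were well above background, the arrays came from 36 slides and 18 scan dates, and more than 10% of spots were marked on 3 arrays. The number of arrays limits the precision. The named genes were the members, Scd1, the 10 genes nearest each in correlation, the annotated neighbours and a list of 22 fatty acid genes with Scd1 among them. The members and lists were chosen with earlier results of these data known.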

Additional observations from a re-analysis of the deposited data

Results flagged for a closer look

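Among the 12 groups of 5 to 10 levels of 1700018G05Rik, Gm9112 and Scd1 in 1 diet that were examined, 1 held an array far from the rest. The Scd1 level of the HF75 array of Week 15 was 6.55, while the other 5 HF75 arrays lay between 2.72 and 3.94, a gap of 0.68 of the whole range against a critical value of 0.625 in Dixon's test. The Scd1 spot was saturated on that array, at 69102 units, so its level is a lower bound and the gap is not exact. Chance gives such a gap in about 1 of 20 groups. The same array held the highest HF75 levels of both members, -2.98 and -3.58, its title is one of those with BA or BAT, and it was the only HF75 array on which the members were well above background.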

How the results depend on the processing

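No alternative brought a dose contrast or a slope of a member past the threshold, and none turned the sign of a diet level against LFC, though normexp brought these nearer to 0, with HFC, HF5 and HF75 minus LFC at -1.48, -1.32 and -0.79 in 1700018G05Rik and HFC, HF5, HF20 and HF75 minus LFC at -1.34, -0.99, -1.05 and -0.55 in Gm9112. The dose contrasts changed sign in places. In 1700018G05Rik HF20 minus HF5 ran from 0.12 with normexp to 1.51 with quantiles, and HF75 minus HF20 reached -1.32 with quantiles. HF20 minus HF5 of Gm9112 was 0.16 without the arrays with many marked spots, 0.42 in the deposited table, 0.58 with marked spots kept and 0.15 with quantiles, and from -0.75 to 0.60 with 1 time label left out. HF75 minus HF5 was -0.89 and -1.40 in 1700018G05Rik and Gm9112 without the BA and BAT titles (chosen after seeing the data), -0.077 in Gm9112 in the deposited table, and from -0.62 to 0.47 and from -0.82 to 0.505 with 1 label left out. HF75 minus HF20 was 0.41 in 1700018G05Rik with normexp, and in Gm9112 -0.50 in the deposited table, -0.49 with marked spots kept, -0.12 with quantiles, -0.63 without those titles and from -0.29 to 0.53 with 1 label left out. The time label is the replicate block of these fits, and without that block (no pairing of arrays) HF20 minus HF5 and HF75 minus HF20 of Gm9112 were 0.17 and -0.076, while no call changed. With dose and time label means subtracted, the blocked correlation with Scd1 was -0.17 for 1700018G05Rik and -0.16 for Gm9112, and that between the members was 0.90.

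The slope count was 1 probe with marked spots kept and with scan date as a block. The member slopes per week were -0.047 and -0.055 with normexp and -0.0046 for Gm9112 with quantiles, and from 0.045 to 0.18 and from -0.040 to 0.081 with 1 label left out. By title, 4923 probes passed with a filter on all arrays, 28430 with normexp and 11090 with quantiles, against 10067 without Week 12, 10312 without Week 9 and up to 20348 without Day 1. The title differences of the members were 0.81 and 0.44 with quantiles, -1.34 and -1.69 with normexp, past the threshold, and from -0.70 to 0.60 and from -0.96 to 0.45 with 1 label left out.

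The correlation of 1700018G05Rik with Scd1 was 0.48 with quantiles, 0.33 given the 75th percentile, -0.88 with normexp, -0.31 with marked spots kept, 0.79 unscaled, -0.036 without HF75 Week 15 and HF5 Week 12 (chosen after seeing the data) and from -0.22 to 0.12 with 1 label left out. That of Gm9112 was 0.37 with quantiles, -0.91 with normexp, 0.70 unscaled, 0.13 without the BA and BAT titles, 0.23 given the 75th percentile and from -0.36 to 0.015 with 1 label left out. The correlation between the members was 0.43 with quantiles, past the threshold in the other settings, and from 0.79 to 0.89 with 1 label left out. The cause of these changes was not tested. The correlation over arrays with both probes well above background was not run, as 4 or 5 arrays were left per pair. Signal near background limits the members' levels outside LFC.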
